A study of Mus musculus with 15 samples.

Results

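The genes described here are 47 lysosomal genes, chosen by their symbols for their known roles in the lysosome, with earlier results of these data known. They comprise 17 glycosidases, sulfatases and other enzymes of sugar-chain breakdown, 7 genes of lipid breakdown and handling, 6 lysosomal membrane proteins, 3 genes of protein turnover, 2 transcription factors and 12 genes of the vacuolar proton pump (V-ATPase). Cathepsins were left out. The gene table held 16886 genes, of which 12198 passed the filter on low counts, and all 47 lysosomal genes were among them. RNA sequencing was done on 15 libraries of macrophages derived from mouse bone, all of the C57BL6J strain and all kept for 14 days with M-CSF (20 ng/ml), which macrophages need to differentiate and survive. There were 5 libraries each of wild type (WT), of a knockout of the very-low-density lipoprotein receptor (VLDLR_KO, VLDLR-/-) and of a knockout of the roundabout receptor ROBO4 (ROBO4_KO, ROBO4-/-). No group was grown without M-CSF, and the labels do not say how the knockout lines were made, nor the age or number of the mice.

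The sample codes are written in 2 ways: in form nB (7 libraries) the digit precedes the letter B, and in form Bn (8 libraries) it follows. Form nB held WT replicates 3, 4 and 5, ROBO4_KO replicates 1 and 2, and VLDLR_KO replicates 1 and 2. Form Bn held WT replicates 1 and 2, ROBO4_KO replicates 3, 4 and 5, and VLDLR_KO replicates 3, 4 and 5. The labels do not explain the form, so genotypes were compared within each form. The labels also do not say that libraries came from separate mice or cultures, so p-values measure the spread between these libraries, which may be technical. In bulk RNA, fewer cells of a type and less RNA per cell cannot be told apart.

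Lysosomes are acidic compartments in which hydrolases break down sugar chains, lipids and proteins taken up by the cell or delivered by autophagy, and in macrophages they digest phagocytosed material. The V-ATPase acidifies them: its V1 sector hydrolyses ATP in the cytosol and drives the membrane V0 sector, which carries protons. TFEB and TFE3 are related transcription factors that bind E-boxes with the letters CACGTG in many lysosomal promoters.

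Such an E-box lay in the promoters of several genes whose RNA level differed between genotypes below, so the stretches that hold it are shown first. RefSeq promoters (build GRCm38.p6, 250 bases before to 50 after the start site) were listed for 40 of the 47 genes. CACGTG, a palindrome that reads the same on both strands, was found in 11 of them (27.5%), against 8.09% of 27025 genes with a listed promoter and 11.8% of the 9783 such genes that were tested. The longer form with GT before it or AC after it was in 9 of the 40 (22.5%), against 2.55% and 4.82%, and each of these holds CACGTG as well. A match is a run of letters and not a measured binding site. The 6 genes shown are those with a match that were called in a genotype comparison within a form. Gla and Sgsh, which hold a match too, were called only over both forms or between them. Each stretch reads 5′ to 3′ on the gene's own strand with CACGTG in capitals and up to 25 bases on either side, ending at the start site.
Glb1, chr9:114401005-114401060, plus strand, 48 bases before the start: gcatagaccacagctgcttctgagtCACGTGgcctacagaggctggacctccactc
Gaa, chr11:119267798-119267853, plus strand, 140 bases before the start: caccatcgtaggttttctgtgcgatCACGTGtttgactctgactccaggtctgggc
Naglu, chr11:101069996-101070051, plus strand, 73 bases before the start: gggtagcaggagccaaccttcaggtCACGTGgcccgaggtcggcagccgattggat
Arsa, chr15:89477425-89477465, minus strand, 16 bases before the start: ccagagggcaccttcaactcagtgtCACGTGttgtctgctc
Atp6v0b, chr4:117887335-117887390, minus strand, 36 bases before the start: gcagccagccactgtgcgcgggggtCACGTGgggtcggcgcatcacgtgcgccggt
Atp6v1a, chr16:44139360-44139415, minus strand, 131 bases before the start: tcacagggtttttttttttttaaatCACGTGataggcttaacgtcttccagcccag
The Atp6v0b stretch holds a further match 18 bases before the start, in lower case. Distances are to the start site of the listed promoter. The Atp6v1a stretch lies within the deposited span of that gene, chr16:44085404-44139711. Of these 6 genes, Gaa, Naglu, Arsa and Atp6v0b were higher and Glb1 and Atp6v1a lower in VLDLR_KO than in WT of form nB. Over all 11 genes with CACGTG, 4 were called higher and 2 lower there, and over the 29 without it 9 were higher and 5 lower.

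Library totals ran from 18132866 to 19005966 counts, and the 47 genes took between 3.49% and 4.78% of them. VLDLR_KO replicate 2 stood apart in the authors' FPKM (fragments per length of gene and size of library), which summed to 676957 over all genes against 532163 to 589384 in the other 14 libraries, so the calls of form nB are given below without it too. The targeted genes were too low to check the labels: Vldlr lay between 0.053 and 1.96 CPM (counts scaled to a common library size) over the 15 libraries and Robo4 between 0 and 0.228. Markers of macrophages were present throughout. Their 13 genes summed to 10088 to 12332 CPM in WT and 28828 to 37369 CPM in VLDLR_KO of form nB, where 9 were called higher and 2 lower. Lyz2 rose there from a mean of 5552 to 23344 CPM and so weighs heavily in the sums. The 2 called lower were Itgam, from a mean of 439.7 to 205.1 CPM, and Fcgr1, from 98.5 to 52.8 CPM. In form Bn the sums were 16471 to 17121 CPM in WT and 18459 to 21033 CPM in VLDLR_KO. There 2 were called higher (Cx3cr1 and Lyz2) and 2 lower (Cd14 and Adgre1). The 10 fibroblast and stromal markers summed to 185.1 to 636.2 CPM in WT and 8.61 to 48.3 CPM in VLDLR_KO of form nB (6 of 9 tested called lower), and to 82.3 to 111.4 and 91.8 to 338 CPM in form Bn. Lum was at 0 in every library of form nB. The 11 osteoclast markers summed to 1721 to 3381 CPM over all groups, with Calcr and Oscar at or near 0. The highest were Atp6v0d2, at group means of 672 to 1863 CPM, and Tcirg1, at 571.5 to 1133.8 CPM. Of the 8 tested in VLDLR_KO against WT, 2 were called higher and 3 lower in form nB, and 0 in form Bn. Lymphocyte markers reached at most 0.558 CPM, dendritic cell markers 2.05 and neutrophil markers 15.6. Erythroid and megakaryocyte markers reached 44.6 CPM and endothelial markers 58.6 CPM, with Kdr called lower in VLDLR_KO than in WT of form nB. Osteoblast markers summed to 1723 to 4256 CPM, nearly all of it Spp1 (1709 to 4248.5 CPM). The part of these differences in the results below was not tested.

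The level per gene length spanned a wide range. By mean FPKM over 15 libraries, the highest were Psap at 5410 (prosaposin, the precursor of the saposins that help enzymes reach sphingolipids), Cd68 at 2057 (macrosialin, a macrophage lysosomal membrane protein) and Cd63 at 1679 (a tetraspanin). Psap alone took between 21.5% and 31.7% of the summed FPKM of the 47 genes. The lowest were Arsa at 13.5 FPKM (arylsulfatase A, which desulfates sulfatide), Sgsh at 17.3 (sulfamidase, for heparan sulfate) and Arsb at 17.6 (arylsulfatase B, for dermatan sulfate). The 3 lowest are thus sulfatases, and the proton-pump genes fell between 89.3 FPKM for Atp6v1h and 1369 FPKM for Atp6v0c.

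**Figure D1:**
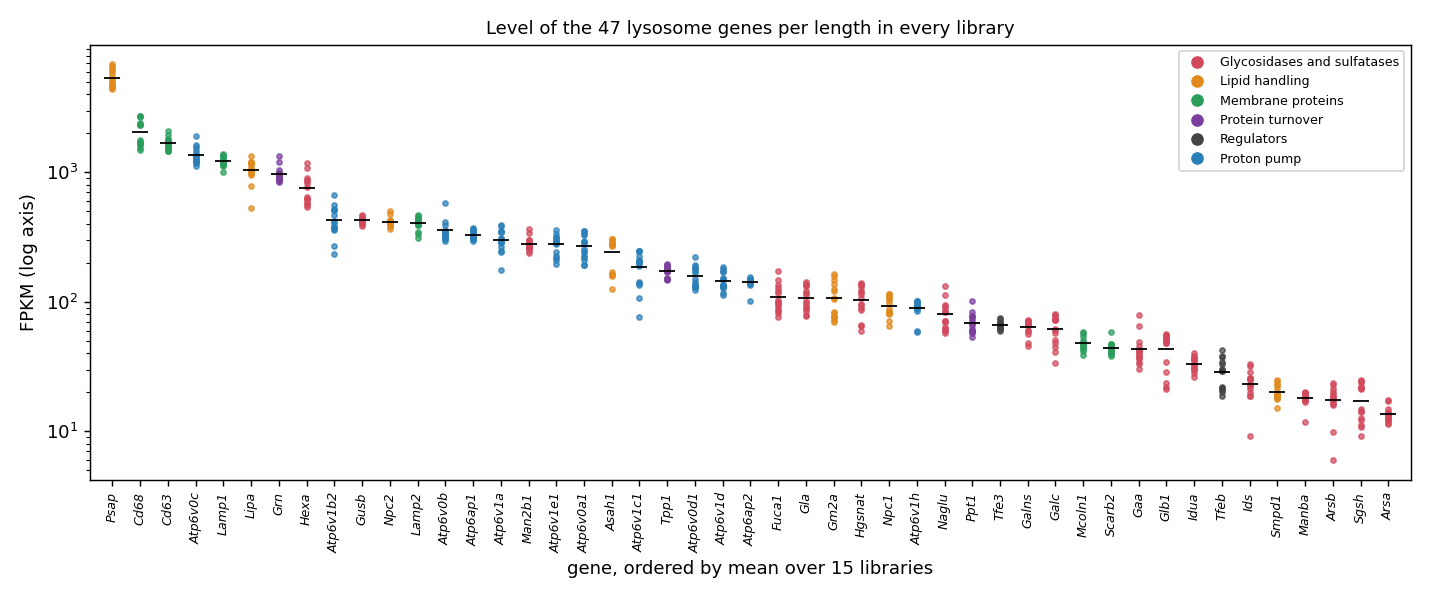
FPKM of each of the 47 genes on a log axis, ordered by mean, with 1 point per library (15 libraries) and a bar at the mean. Psap stands highest at a mean of 5410 FPKM and Arsa lowest at 13.5 FPKM, and for most genes the libraries lie close together beside this range.

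In VLDLR_KO macrophages 5 of the 47 genes were lower than in WT in both code forms: Glb1, Galc, Asah1, Atp6v1c1 and Atp6v1e1. The share of all tested genes lower in both forms is not given here, so this count has no background to compare with. In form nB, 14 of the 47 rose and 11 fell relative to WT, 53.2% in all, where 33.2% of all tested genes were called (17.6% higher, 15.6% lower). In form Bn 5 fell and 0 rose, 10.6% in all, near the 13.4% of all tested genes called there (5.94% higher, 7.43% lower). The median log2 fold change over the 47 genes was 0.07 in form nB and -0.18 in form Bn, beside -0.0017 and -0.0005 over all tested genes, and 38 of the 47 were negative in form Bn. On the same WT libraries of form Bn, 37 of the 47 were negative in ROBO4_KO, and 29 were negative in VLDLR_KO against ROBO4_KO. Calls here and below are at an adjusted p (Benjamini-Hochberg over 12198 genes) under 0.05 in edgeR's quasi-likelihood test, and values per library are CPM scaled by TMM, edgeR's trimmed-mean normalisation. The count of called genes in form nB was smaller without VLDLR_KO replicate 2, which leaves only VLDLR_KO replicate 1 in that group. All genes still called were among the 25. The share of all tested genes called in that fit is not given here. Whether the excess of 53.2% over 33.2% remains without that library was therefore not tested. Without VLDLR_KO replicate 2 the log2 fold changes of the still called genes that fell were -1.17 for Atp6v1c1, -0.88 for Arsb, -0.84 for Glb1, -0.77 for Atp6v1h, -0.69 for Asah1, -0.63 for Atp6v1e1 and -0.47 for Galns. Those that rose were at 0.95 for Hgsnat, 0.63 for Fuca1, 0.55 for Gaa, 0.51 for Ppt1, 0.44 for Scarb2, 0.38 for Hexa and 0.33 for Arsa. The 11 genes whose call was lost kept their sign, at -0.33 for Galc, -0.31 for Lipa, -0.26 for Ids, -0.21 for Atp6v1a, 0.08 for Atp6v0b, 0.28 for Grn, 0.29 for Tfe3, 0.31 for Naglu, 0.39 for Atp6v0c, 0.56 for Tfeb and 0.57 for Psap. In form Bn the count ran from 2 (without WT replicate 2) to 9 (without VLDLR_KO replicate 2 or 4), and it was 8 without VLDLR_KO replicate 1. Leaving out WT replicate 1 gave 3, as did leaving out replicate 3 or 5 of VLDLR_KO.

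**Figure D2:**
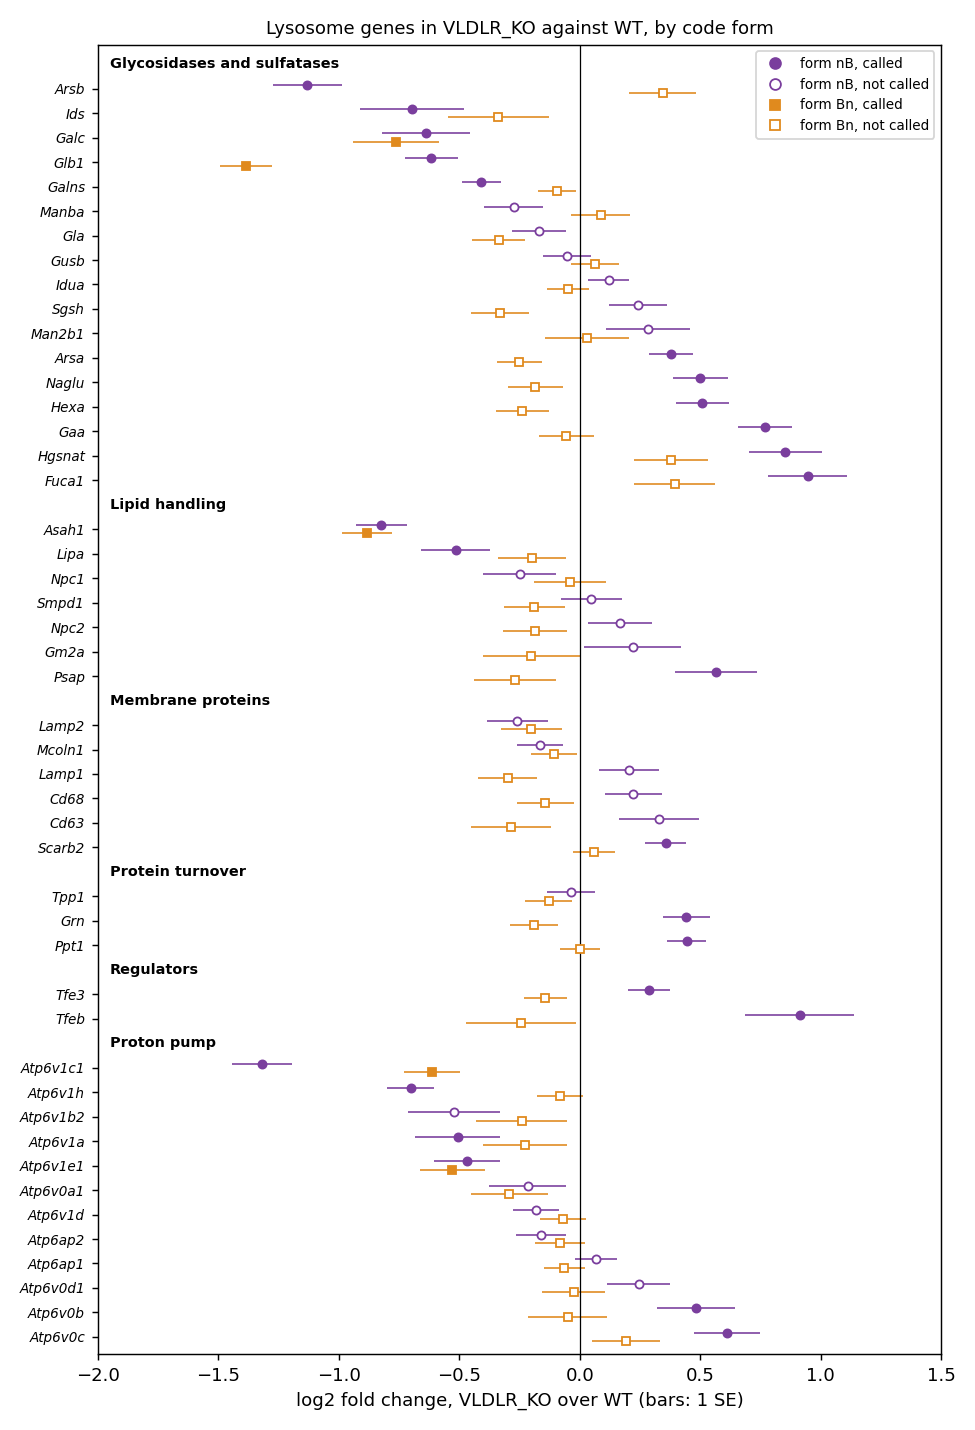
Log2 fold change of VLDLR_KO over WT (horizontal axis, bars 1 SE) for each gene, grouped by role, in form nB (circles) and form Bn (squares), filled where the adjusted p was under 0.05. Filled points lie on both sides of 0 in form nB (14 higher, 11 lower) and only on the left in form Bn (5 lower).

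Glb1 (NCBI gene 12091, chr9:114401078-114474379) encodes lysosomal beta-galactosidase, which removes terminal galactose from GM1 ganglioside and keratan sulfate. In form nB it was at 118.8, 104 and 114.4 CPM in WT and at 63.2 and 83.5 CPM in VLDLR_KO. In form Bn the WT libraries were at 130.5 and 127 CPM and those of VLDLR_KO at 46.7, 49.1 and 52.3 CPM. All 5 VLDLR_KO libraries lay below every WT and every ROBO4_KO library, whose lowest value was 104 CPM. The log2 fold change against WT was -0.62 (SE 0.11, adjusted p = 0.00159) in form nB and -1.38 (SE 0.11, adjusted p = 2.23e-06) in form Bn, and the difference between forms was itself called (-0.77, adjusted p = 0.00745). Tmppe overlaps Glb1 in the annotation, and reads of overlapping genes may be assigned to either. Tmppe was at a mean of 55.9 CPM in WT and 57.2 CPM in VLDLR_KO of form nB (log2 fold change 0.03, adjusted p = 0.873), and at 41.7 and 51.4 CPM in form Bn (0.30, adjusted p = 0.187). The summed means of both genes were lower in VLDLR_KO by log2 ratios of -0.37 and -0.76.

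Asah1 (NCBI gene 11886, chr8:41339838-41417118) encodes acid ceramidase, which splits ceramide into sphingosine and a fatty acid. WT libraries were at 553.1, 566.6 and 567.9 CPM in form nB and 617 and 610.3 CPM in form Bn. VLDLR_KO libraries were at 351.1 and 284.4 CPM and at 320.6, 354.7 and 323.3 CPM, all below every WT and ROBO4_KO library. The log2 fold changes of -0.82 (SE 0.11, adjusted p = 0.00013) and -0.88 (SE 0.10, adjusted p = 8.1e-05) were alike in size, with a difference between forms of -0.06 (SE 0.15, adjusted p = 0.804). Frg1 overlaps Asah1 and was far lower, at means of 31.8 to 43.3 CPM in these groups, and the summed means of both genes gave log2 ratios of -0.72 and -0.82.

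Galc (NCBI gene 14420, chr12:98202287-98260665) encodes galactosylceramidase, the enzyme that degrades galactosylceramide and is missing in Krabbe disease. It was at 271.4, 287.6 and 262.3 CPM in WT against 218.1 and 133.4 CPM in VLDLR_KO of form nB. The form Bn libraries were at 279.1 and 278.6 CPM in WT against 145.1, 189.5 and 158.9 CPM in VLDLR_KO. Neither form had overlapping WT and VLDLR_KO libraries, but the 2 VLDLR_KO libraries of form nB lay far apart. The log2 fold changes were -0.64 (SE 0.18, adjusted p = 0.0186) and -0.76 (SE 0.18, adjusted p = 0.0133). The call was lost without VLDLR_KO replicate 2 (adjusted p = 0.185) or WT replicate 4 (0.0545), or in a separate fit per form (0.0533), in form nB, where the alternatives gave 0.000413 to 0.185. In form Bn it was lost without WT replicate 1 (0.0842), WT replicate 2 (0.0949), VLDLR_KO replicate 3 (0.0584) or VLDLR_KO replicate 5 (0.0504), within a range of 0.000955 to 0.0949. ROBO4_KO libraries of form Bn were at 236, 174.2 and 205 CPM, overlapping those of VLDLR_KO.

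**Figure D3:**
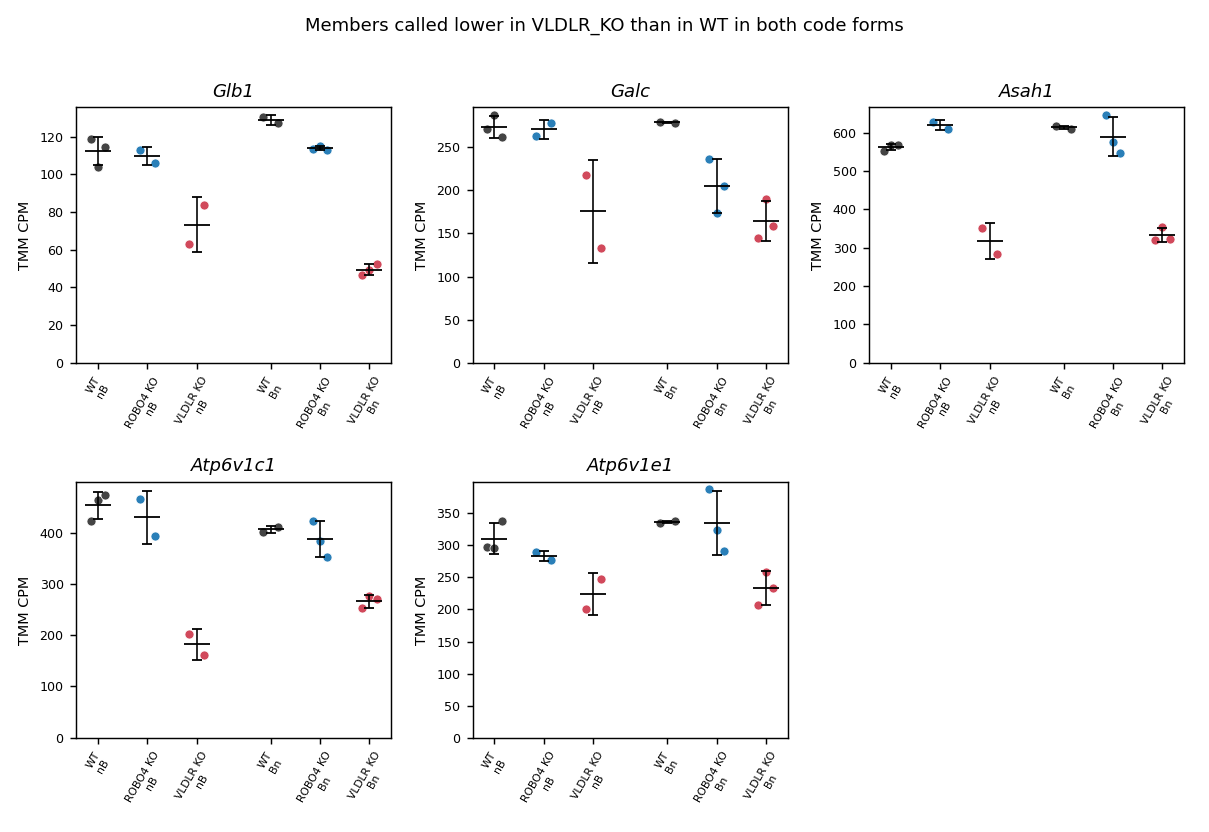
TMM-scaled CPM of the 5 genes called lower in VLDLR_KO than in WT in both forms, 1 point per library, with the mean (bar) and SD (whiskers) per genotype and form. For Glb1 and Asah1 all 5 VLDLR_KO libraries lie below all other libraries.

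Among the other 15 glycosidases, sulfatases and related enzymes, form nB held 6 that rose and 3 that fell in VLDLR_KO, and form Bn held no call. Fuca1 (alpha-fucosidase, which removes fucose from glycoproteins) was at 185.5, 177 and 216.6 CPM in WT and 299.2 and 444.4 CPM in VLDLR_KO of form nB (log2 fold change 0.95, SE 0.16, adjusted p = 0.0012). Gaa (acid alpha-glucosidase, which digests glycogen) was at 160.2, 139.4 and 140.8 CPM against 216.1 and 284.3 CPM (0.77, SE 0.11, adjusted p = 0.000353). Hexa (the alpha chain of beta-hexosaminidase, which acts on GM2 ganglioside) was at 1343, 1280 and 1506 CPM against 1796 and 2120 CPM (0.51, SE 0.11, adjusted p = 0.00437). In each of these 3 the VLDLR_KO libraries of form nB lay above all WT libraries of that form. Naglu (alpha-N-acetylglucosaminidase of heparan sulfate breakdown) was at 207.4, 200 and 214.7 CPM against 257.9 and 328.9 CPM (0.50, SE 0.11, adjusted p = 0.00566), and lost its call without VLDLR_KO replicate 2 (adjusted p = 0.0735, within 0.000362 to 0.0735 over the alternatives). Arsa was at 44.5 to 47.3 CPM against 57.3 and 61.1 CPM (0.38, SE 0.09, adjusted p = 0.00855).

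Arsb, the arylsulfatase that acts on dermatan sulfate, had the largest difference between the forms among the 47 genes. It was at 68.2, 75.4 and 60.4 CPM in WT and 37.1 and 25 CPM in VLDLR_KO of form nB (log2 fold change -1.13, SE 0.14, adjusted p = 0.000112). For form Bn the values were 69.7 and 65.1 CPM in WT and 86.6, 89.2 and 80.8 CPM in VLDLR_KO (0.34, SE 0.14, adjusted p = 0.119). The VLDLR_KO libraries thus lay below every WT library in form nB and above every WT library in form Bn. Ids (iduronate sulfatase, deficient in Hunter syndrome) was at 115.6, 131.2 and 105.4 CPM against 98.5 and 46.4 CPM in form nB (-0.69, SE 0.22, adjusted p = 0.0266). Its call was lost without VLDLR_KO replicate 2 (adjusted p = 0.131), WT replicate 3 (0.0552) or WT replicate 4 (0.0839), or in a separate fit per form (0.113), within 1.1e-05 to 0.131 over the alternatives. Galns, which desulfates keratan sulfate, was at 137.6 to 154.3 CPM against 107.4 and 115.3 CPM (-0.41, SE 0.08, adjusted p = 0.00271), and overlaps Trappc2l, which was called higher (0.59, adjusted p = 0.0386). The summed means of Galns and Trappc2l gave a log2 ratio of -0.155.

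Of the 7 lipid genes, form nB held 1 that rose and 2 that fell. Psap was at 10683, 11457 and 10762 CPM in WT and 16328 and 16149 CPM in VLDLR_KO of form nB (log2 fold change 0.57, SE 0.17, adjusted p = 0.0226). In form Bn its WT libraries, at 14772 and 17662 CPM, overlapped the VLDLR_KO libraries at 11022, 16330 and 13053 CPM (-0.27, adjusted p = 0.338). The Psap call was lost without VLDLR_KO replicate 2 (adjusted p = 0.0932), WT replicate 3 (0.0653) or WT replicate 5 (0.0522), within 0.00625 to 0.0932. Lipa, the acid lipase that frees cholesterol and fatty acids from lipoprotein lipids, was at 2568, 2827 and 2730 CPM against 2190 and 1602 CPM in form nB (-0.51, SE 0.14, adjusted p = 0.0162). Without VLDLR_KO replicate 2 its adjusted p was 0.167 and without WT replicate 4 it was 0.0515, within 0.00135 to 0.167. Npc1, which exports cholesterol from the lysosome, was at 527.8, 567.6 and 528.8 CPM against 558.7 and 352.5 CPM, so 1 VLDLR_KO library lay within the WT range and the other below it (-0.25, SE 0.15, adjusted p = 0.216), and the value was 0.04 (adjusted p = 0.841) without replicate 2 and -0.62 (adjusted p = 0.000731) without replicate 1. Smpd1, Gm2a and Npc2 had no call in either form.

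Among the 12 proton-pump genes, 4 fell and 2 rose in VLDLR_KO of form nB. The 4 that fell encode V1 subunits (Atp6v1a, Atp6v1c1, Atp6v1e1, Atp6v1h) and the 2 that rose encode V0 subunits (Atp6v0b, Atp6v0c). Outside the 12, subunits of V1 and V0 did not all keep to these directions in the same comparison. The V1 gene Atp6v1g2 rose (log2 fold change 1.06, adjusted p = 0.00247). Of V0 genes, Atp6v0e2 (-3.20, adjusted p = 0.0232) and Atp6v0d2 (-0.68, adjusted p = 0.041) fell and Tcirg1 rose (0.81, adjusted p = 0.0101). Atp6v1c1 (NCBI gene 66335, chr15:38661904-38712653), whose C subunit joins the V1 and V0 sectors, was at 423.5, 463.2 and 472.6 CPM in WT and 202.8 and 160.6 CPM in VLDLR_KO (log2 fold change -1.32, SE 0.12, adjusted p = 1.07e-05). The form Bn libraries were at 401.8 and 411.6 CPM against 251.9, 275.7 and 269.6 CPM (-0.61, SE 0.12, adjusted p = 0.00391). No VLDLR_KO library overlapped any WT or ROBO4_KO library for this gene, and only without WT replicate 2 did the form Bn call go (adjusted p = 0.052, within 2.01e-05 to 0.052). Atp6v1e1 (NCBI gene 11973, chr6:120795244-120822816), a peripheral-stalk subunit, was at 297.1, 296.5 and 338.2 CPM against 201 and 247.8 CPM in form nB, and at 335.6 and 337.6 CPM against 207.1, 259.2 and 234 CPM in form Bn. Its log2 fold changes were -0.47 (SE 0.14, adjusted p = 0.0203) and -0.53 (SE 0.13, adjusted p = 0.0206), with VLDLR_KO below WT in every library. In form nB the Atp6v1e1 call was lost without VLDLR_KO replicate 1 (0.102) or WT replicate 5 (0.0577), within 0.000541 to 0.102. In form Bn it was lost without WT replicate 1 (0.114), WT replicate 2 (0.138), VLDLR_KO replicate 3 (0.0821) or VLDLR_KO replicate 5 (0.0627), within 0.00353 to 0.138.

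Atp6v1h, a regulatory V1 subunit, was at 186.8, 190.9 and 191.6 CPM in WT and 112 and 121.4 CPM in VLDLR_KO of form nB (log2 fold change -0.70, SE 0.10, adjusted p = 0.000238). In form Bn the WT libraries, at 184.3 and 186.3 CPM, lay within the VLDLR_KO range of 163.3 to 192 CPM (-0.08, adjusted p = 0.633). Atp6v0c, the proteolipid that forms most of the proton-carrying ring, was at 1128, 1160 and 1299 CPM against 1578 and 2076 CPM in form nB (0.61, SE 0.14, adjusted p = 0.00566). The call did not hold without VLDLR_KO replicate 2 (adjusted p = 0.0865, within 0.000325 to 0.0865), and Atp6v0c has annotated pseudogenes, so its counts are less certain. The calls of Atp6v0b and Atp6v1a rested on few libraries. Atp6v0b, another ring subunit, was at 288.3, 281.1 and 338.8 CPM against 320.3 and 525.7 CPM, with overlap (0.48, SE 0.16, adjusted p = 0.0371). Its adjusted p was 0.723 without VLDLR_KO replicate 2, 0.103 and 0.113 without WT replicate 3 and 4, 0.0513 without ROBO4_KO replicate 4 and 0.0504 without VLDLR_KO replicate 5, within 0.000224 to 0.723. A separate fit per form gave 0.125 and removal of the length trend 0.122. Atp6v1a, the catalytic subunit, was at 1261, 1420 and 1297 CPM against 1147 and 719.1 CPM (-0.51, SE 0.18, adjusted p = 0.0431). Without VLDLR_KO replicate 2 its adjusted p was 0.397, and it also rose above 0.05 without any WT library, ROBO4_KO replicate 1, 2 or 4, or VLDLR_KO replicate 5 (0.053 to 0.118), and in a separate fit per form (0.0946). The 6 pump genes without a call in either form were Atp6v0a1, Atp6v0d1, Atp6v1b2, Atp6v1d and the accessory proteins Atp6ap1 and Atp6ap2.

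Lamp1, the abundant lysosomal membrane glycoprotein, was not called in VLDLR_KO against WT in either form, at log2 fold changes of 0.20 (adjusted p = 0.213) and -0.30 (adjusted p = 0.13), and the second was called in 1 alternative (0.0489, within 0.0489 to 0.375). Cd68 was not called either, at 0.22 (adjusted p = 0.16) and -0.14 (adjusted p = 0.474), and its form nB value turned to -0.02 when a length trend was removed. Mcoln1, the TRPML1 channel that releases lysosomal calcium, was at -0.17 (adjusted p = 0.195) and -0.11 (adjusted p = 0.511), and the first was called once a length trend was removed (-0.28, adjusted p = 0.0103). Scarb2, the carrier of glucocerebrosidase, was the membrane-protein gene that rose in form nB, from 190.1 to 195.8 CPM in WT to 263.1 and 230.6 CPM in VLDLR_KO (0.36, SE 0.09, adjusted p = 0.00797). A separate fit per form ended that call (adjusted p = 0.0537, within 0.000207 to 0.0537). Of the protein-turnover genes, Grn (progranulin, which lysosomes process to granulins) was at 2081, 1998 and 2211 CPM in WT and 2558 and 3140 CPM in VLDLR_KO of form nB (0.44, SE 0.10, adjusted p = 0.00519). Without VLDLR_KO replicate 2 the adjusted p of Grn was 0.0574, within 4.02e-05 to 0.0574. Ppt1, which removes fatty acids from proteins, was at 151.9, 161.1 and 172.6 CPM against 231 and 209.2 CPM (0.44, SE 0.08, adjusted p = 0.00168), and overlaps the more abundant Cap1 (-0.16, adjusted p = 0.261), with a log2 ratio of -0.065 for the summed means of both. Tpp1 had no call.

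Both transcription factors rose in VLDLR_KO of form nB and neither was called in form Bn. Tfeb was at 41.1, 37.6 and 43.8 CPM in WT and 60.5 and 93.3 CPM in VLDLR_KO (log2 fold change 0.91, SE 0.23, adjusted p = 0.00967). Libraries of form Bn were at 70.4 and 73.9 CPM in WT and 43.2, 80 and 59.8 CPM in VLDLR_KO (-0.24, SE 0.23, adjusted p = 0.539), with the genotypes overlapping. Its form nB call was lost without VLDLR_KO replicate 2 (adjusted p = 0.157, within 0.00136 to 0.157). Tfe3 was at 177.4, 171.9 and 179.7 CPM against 216.4 and 214 CPM in form nB (0.29, SE 0.09, adjusted p = 0.0256), and at 205 and 199.9 CPM against 173.6, 197.4 and 178.8 CPM in form Bn (-0.14, adjusted p = 0.325). Tfe3 lost its call without VLDLR_KO replicate 2 (0.0707), WT replicate 3 (0.063) or WT replicate 4 (0.081), without the filter on low counts (0.05) and in a separate fit per form (0.0573), within 0.0076 to 0.081. These values are RNA levels, whereas both factors are known to be controlled largely by their location in the cell.

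The difference between VLDLR_KO and WT was itself different between the forms for 14 of the 47 genes (29.8%), where 14.5% of all tested genes were called in the same test (6.57% higher and 7.93% lower in form Bn). The form Bn value was above the form nB value in 3, Arsb (by 1.48, SE 0.20, adjusted p = 0.000733), Atp6v1c1 (0.70, adjusted p = 0.018) and Atp6v1h (0.62, adjusted p = 0.0119). It was below in 11, led by Tfeb (-1.16, SE 0.32, adjusted p = 0.0324), Psap (-0.83, adjusted p = 0.0366), Gaa (-0.83, SE 0.16, adjusted p = 0.00625), Glb1 and Hexa (-0.75, SE 0.15, adjusted p = 0.00858). Of these 11, 9 rose in form nB and had no call in form Bn: Gaa, for example, was at 128.4 and 137.4 CPM in WT and 119.2, 130.7 and 133.7 CPM in VLDLR_KO of form Bn. Glb1 differed in another way, since it was lower than WT in both forms and more so in form Bn. The count was 5 without WT replicate 1, 6 without WT replicate 2, 25 without VLDLR_KO replicate 1, and 9 without replicate 2 or 5 of VLDLR_KO or replicate 3 or 4 of WT. Against ROBO4_KO, 8 genes differed between the forms (3 higher and 5 lower in form Bn), where 8.45% of all tested genes did (3.97% and 4.48%).

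**Figure D4:**
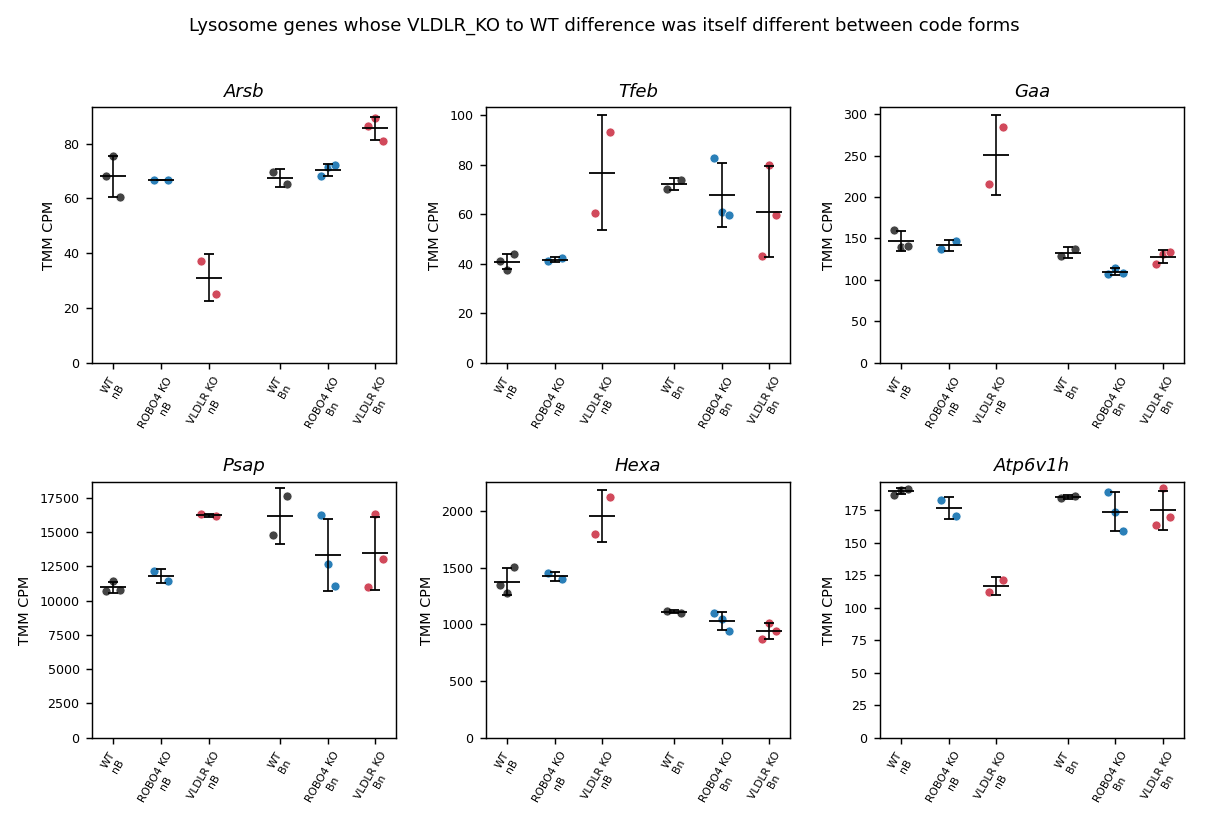
TMM-scaled CPM of 6 genes whose VLDLR_KO to WT difference was itself called different between forms, 1 point per library, with the mean (bar) and SD (whiskers) per genotype and form. Arsb lies below WT in VLDLR_KO of form nB (37.1 and 25 CPM) and above WT in form Bn (80.8 to 89.2 CPM).

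In ROBO4_KO macrophages none of the 47 genes was called against WT in either form by edgeR. In form nB 0.328% of all tested genes were called, and in form Bn 1.59%. The log2 fold changes of the 47 lay between -0.31 and 0.78 in form nB and between -0.44 and 0.46 in form Bn, with 3 and 6 genes at an unadjusted p under 0.05 and 1 gene called by DESeq2 in each form. The gene that came closest in form nB was Hgsnat, the membrane enzyme that acetylates heparan sulfate ends, at 160.3, 146.9 and 160.9 CPM in WT and 220.4 and 315.8 CPM in ROBO4_KO (0.78, SE 0.15, adjusted p = 0.0516). Libraries of form Bn were at 243.9 and 225.8 CPM in WT and 369, 268.2 and 332.1 CPM in ROBO4_KO (0.46, SE 0.15, adjusted p = 0.253). Every ROBO4_KO library lay above every WT library of its form. Averaged over the forms Hgsnat was the 1 gene of the 47 called (0.62, adjusted p = 0.00786), where 1.63% of all tested genes were, and the count was 0 without WT replicate 2. In VLDLR_KO Hgsnat was at 301.9 and 261.9 CPM in form nB (0.85, SE 0.15, adjusted p = 0.00137) and at 323.8, 297.4 and 294.8 CPM in form Bn (0.38, SE 0.15, adjusted p = 0.126), and these contrasts share the WT libraries. In form nB a ROBO4_KO call was present without ROBO4_KO replicate 1, 3 or 4 or VLDLR_KO replicate 1 or 2, with a count of 1 each. The ROBO4_KO difference did not change between forms for any of the 47 by edgeR, where 0.385% of all genes were called, with 0 at an unadjusted p under 0.05 and 0 by DESeq2.

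**Figure D5:**
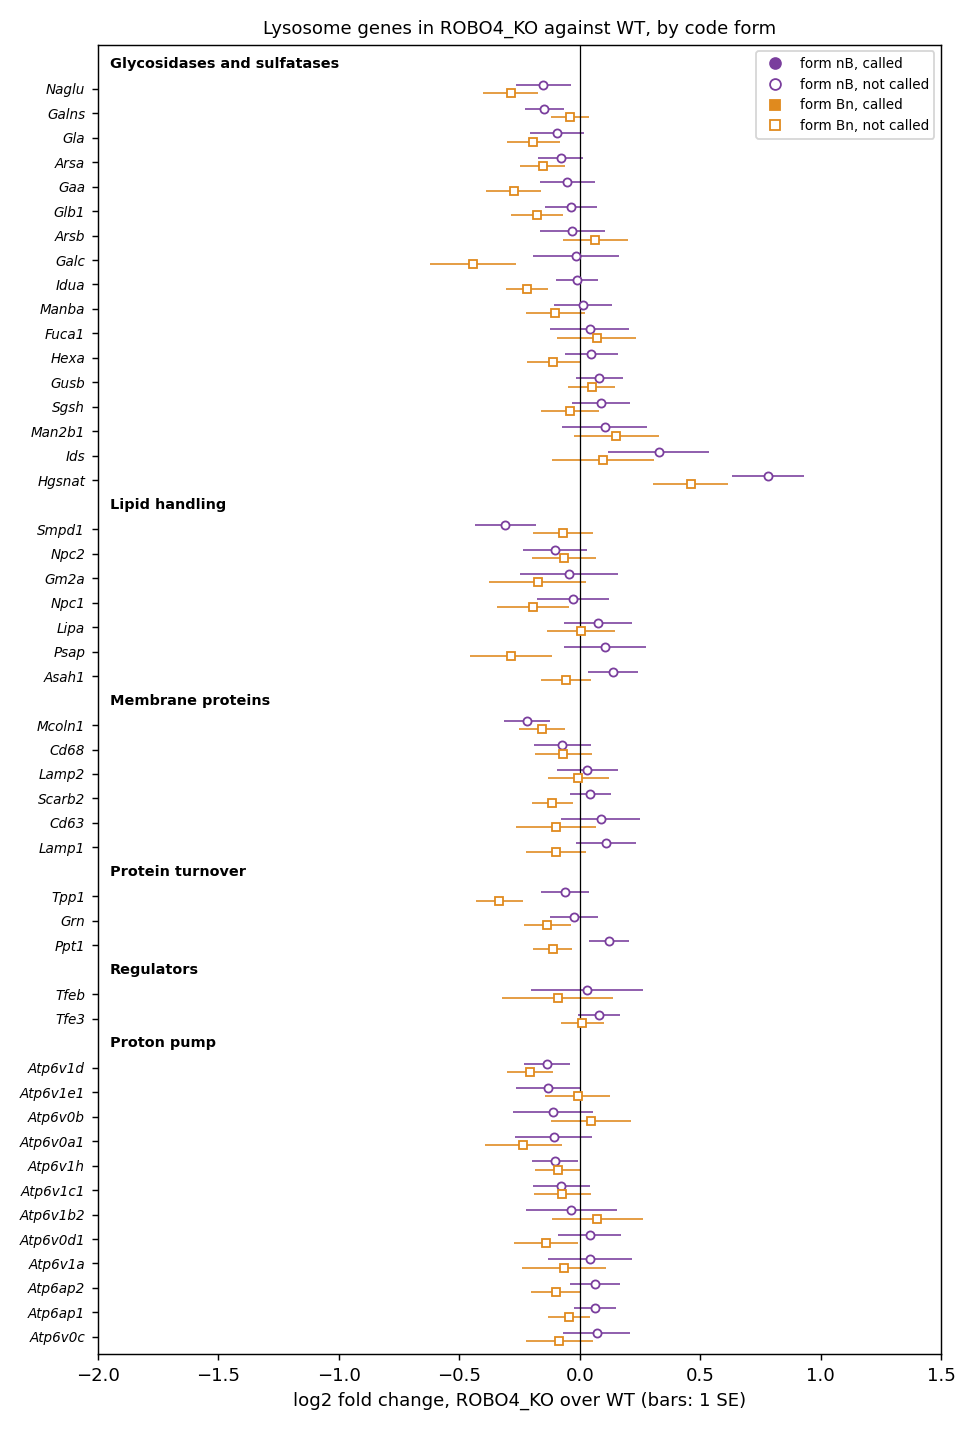
Log2 fold change of ROBO4_KO over WT (horizontal axis, bars 1 SE) for each gene, grouped by role, in form nB (circles) and form Bn (squares). No point is filled, since no gene reached an adjusted p under 0.05, and Hgsnat lies farthest from 0 at 0.78 and 0.46.

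Against ROBO4_KO, 21 of the 47 genes were called in VLDLR_KO of form nB (11 higher, 10 lower), where 29.6% of all tested genes were (15.9% higher, 13.7% lower). In form Bn 4 were called (0 higher, 4 lower), where 11.9% of all were (5.59% higher, 6.34% lower). These comparisons share the VLDLR_KO libraries with those against WT. Glb1 was lower than in ROBO4_KO by log2 fold changes of -0.58 (adjusted p = 0.00489) and -1.21 (adjusted p = 4.36e-06), Asah1 by -0.96 (0.000106) and -0.82 (6.94e-05), and Atp6v1c1 by -1.24 (4.35e-05) and -0.54 (0.00449). In a separate fit per form the call of Glb1 in form nB was lost (adjusted p = 0.0554). The fourth call of form Bn was Atp6v1e1 (-0.52, adjusted p = 0.0131), which was not called in form nB (-0.34, adjusted p = 0.0977), and it was lost without ROBO4_KO replicate 3 (0.0608) or VLDLR_KO replicate 3 (0.0683), within 0.000932 to 0.0683. Galc was called against ROBO4_KO in form nB (-0.62, adjusted p = 0.0317) and not in form Bn (-0.32, adjusted p = 0.238), and the form nB call was lost without ROBO4_KO replicate 1 (0.0975), ROBO4_KO replicate 2 (0.124) or VLDLR_KO replicate 2 (0.263), within 0.000563 to 0.263. Gaa at 0.82 (adjusted p = 0.00069) and Arsb at -1.10 (adjusted p = 0.000338) were called in form nB under every alternative. The form nB count was 10 without ROBO4_KO replicate 1, 11 without ROBO4_KO replicate 2 and 13 without VLDLR_KO replicate 2.

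Averaged over the forms, VLDLR_KO had 6 genes higher and 12 lower than WT, where 26% of all tested genes were called (12.4% higher, 13.6% lower), and 7 higher and 11 lower than ROBO4_KO, where 26.3% were (13.2% and 13.1%). Between the forms themselves, averaged over genotypes, 9 of the 47 were higher and 18 lower in form Bn, 57.4% in all, where 45.6% of all tested genes were called (22.4% higher, 23.2% lower). The genes lower in form Bn were led by Sgsh (log2 fold change -0.86, adjusted p = 1.16e-06), Hexa (-0.61, adjusted p = 8.63e-06) and Cd68 (-0.58, adjusted p = 2.17e-05). Sgsh lay between 86.8 and 107.1 CPM in all 7 libraries of form nB and between 39.5 and 60.2 CPM in all 8 of form Bn, without overlap. It overlaps Slc26a11, and reads of overlapping genes may be assigned to either. Slc26a11 was at a mean of 85.2 CPM in WT of form nB and 52.5 CPM in WT of form Bn. In VLDLR_KO against WT it was called higher in form nB (0.76, adjusted p = 0.00105) and lower in form Bn (-0.87, adjusted p = 0.000837). The genes higher in form Bn were led by Gm2a (0.84, adjusted p = 9.91e-05), the activator that presents GM2 to hexosaminidase, Atp6v1b2 (0.64, adjusted p = 0.000478) and Atp6v0a1 (0.56, adjusted p = 0.00036). Gm2a lay between 272.5 and 362.1 CPM in form nB and between 418.3 and 707.6 CPM in form Bn. Whatever the form marks cannot be told apart from it.

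At the level of transcripts, 118 of the 132 listed for these genes passed the filter. In VLDLR_KO against WT 9 rose and 7 fell in form nB, where 4.2% of all tested transcripts were called, and 3 fell in form Bn, where 1.64% were. The 3 were the main transcripts of Glb1 (log2 fold change -1.37, adjusted p = 4.74e-05), Asah1 (-0.88, adjusted p = 0.000763) and Atp6v1c1 (-0.61, adjusted p = 0.0251). No transcript was called for ROBO4_KO in either form by edgeR, where 0.0855% and 0.248% of all were, and 3 and 8 of the 118 had an unadjusted p under 0.05. For Gaa the less abundant of its 2 transcripts made up 20.9% ± 5.4 (SD, n = 3) of its CPM in WT and 38.5% ± 16.7 (SD, n = 2) in VLDLR_KO of form nB, and was the Gaa transcript called (1.69, SE 0.38, adjusted p = 0.0315). The difference in share itself was not tested.

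In the authors' deposited table of comparisons, 20 of the 47 genes had a q-value under 0.05 for VLDLR_KO against WT in form nB (10 higher, 10 lower, where 15% of all genes with a q-value did), of which 19 were called here, and 9 in form Bn (3 higher, 6 lower, where 12.2% did), which held all 5 calls made here. For ROBO4_KO against WT the authors' deposited table gave 1 gene in form nB, Hgsnat at a log2 fold change of 0.78 (q = 8.21e-06), where 1.41% of all genes passed, and 2 in form Bn, where 2.3% did.

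Beyond the 47 genes, 133 further genes of the lysosome and its control were listed, of which 123 were tested. In VLDLR_KO against WT of form nB 35 of them rose and 14 fell, 39.8% in all beside the 33.2% of all genes, and in form Bn 5 rose and 7 fell, 9.76% beside 13.4%. For ROBO4_KO against WT edgeR called none in either form, with 11 and 24 at an unadjusted p under 0.05 and 1 and 4 called by DESeq2. Of 14 other tested V-ATPase genes 3 rose and 5 fell in form nB, of 30 other hydrolases and activators 9 rose and 3 fell, of 34 other membrane proteins and transporters 11 rose and 3 fell, of 23 sorting and biogenesis genes 7 rose and 2 fell, and of 22 genes of the TFEB family and of mTORC1 docking 5 rose and 1 fell. The largest rises were Plbd1 (a phospholipase B-like protein, log2 fold change 3.13, adjusted p = 0.00709), Rogdi (1.25, adjusted p = 0.0008) and Atp6v1g2 (1.06, adjusted p = 0.00247). Plbd1 was low, at a mean of 0.0525 CPM in WT and 0.515 CPM in VLDLR_KO. The largest falls were Atp6v0e2 (-3.20, adjusted p = 0.0232), Hyal1 (a hyaluronidase, -1.16, adjusted p = 0.00202) and Dmxl1 (-1.02, adjusted p = 0.0185).

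In form Bn the listed genes that rose were led by Plbd1 (log2 fold change 3.38, adjusted p = 0.000152, from a mean of 1.08 to 11.3 CPM), Laptm4b (0.87, adjusted p = 0.00187) and Abca2 (0.43, adjusted p = 0.0309). Those that fell were led by Slc15a4 (a histidine and peptide transporter, -0.64, adjusted p = 0.00148), Prcp (a carboxypeptidase, -0.62, adjusted p = 0.00371) and Flcn (folliculin, a regulator of the Rag GTPases, -0.55, adjusted p = 0.000895). Flcn had risen in form nB (0.45, adjusted p = 0.00203). Against ROBO4_KO the listed genes also included Tcirg1, the a3 subunit of V0, at 0.99 (adjusted p = 0.00844) in form nB, Clcn6 at 0.69 (adjusted p = 0.0123) and Ggh at -0.41 (adjusted p = 0.0356) in form Bn.

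Gene length, computed here from the deposited counts and FPKM, moved with several of the comparisons. For VLDLR_KO against WT in form nB, Spearman's rho between length and log2 fold change was -0.325 over 12198 genes and -0.157 over the 47, a description across genes of the same libraries, which are not independent. In form Bn the values were -0.023 and 0.026. For ROBO4_KO against WT they were 0.265 and 0.116 in form nB and -0.165 and -0.092 in form Bn, and for VLDLR_KO against ROBO4_KO -0.397 and -0.178 in form nB and 0.092 and 0.100 in form Bn. The median length was 2341 bases for the 14 genes that rose, 2367 bases for the 11 that fell and 2422 bases for the 22 not called.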

How the data were processed

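The members and all gene lists were chosen with earlier results of these data known. Per the submitters' processing notes, HISAT and Bowtie2 were used with build GRCm38.p6, with versions not given in the sources used here. The authors deposited estimated counts per gene and transcript, which are not all whole (92% of gene counts are) and were rounded, and a normalised expression column per library, taken here as FPKM because its ratio to the counts follows gene length and library total. The authors also deposited log2 fold changes and DESeq2 q-values, whose sign, per the file headers' order of sets, was turned to first over second after comparing 12198 genes. Coordinates are the deposited ones, and 29 of the 47 genes end elsewhere in RefSeq. Whether counting used strand is not given in the sources used here, so the 19 genes that overlap another RefSeq gene are less certain.

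Counts were analysed with edgeR 4.0.16 in R 4.3.3 (TMM, filterByExpr over 6 groups of genotype and form, quasi-likelihood F test, 9 residual degrees of freedom, Benjamini-Hochberg adjustment over 12198 genes) and checked on simulated data. SE is the absolute log2 fold change divided by the square root of F. Alternatives were DESeq2 1.42.0, RLE scaling, no filter on low counts, a block on the code digit, a fit per form, the form ignored or additive, each library left out, and, chosen after seeing the data, an offset that removes a length trend. Values are named for called genes, up to 8 per direction and comparison, for Tfeb, Tfe3, Mcoln1, Lamp1, Cd68, Npc1 and Grn, for the 3 highest and 3 lowest levels, for the 3 largest form differences and 3 largest other lysosomal genes per direction, and for 6 promoters. Values of the other called genes of VLDLR_KO against WT in form nB were added after they were seen. Library totals were 18132866 to 19005966.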

Additional observations from a re-analysis of the deposited data

Results flagged for a closer look

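With 5 libraries per genotype and both forms pooled, 7 of 141 gene and genotype groups held a library far from the other 4. The expected rate was taken as about 1 in 20, and 7 of 141 is close to that rate. Groups share libraries and the forms differ, so whether these flags arose by chance was not tested. Glb1 was at 106.2 CPM in ROBO4_KO replicate 2, with the other 4 from 113 to 114.9 CPM. Ids was at 46.4 CPM in VLDLR_KO replicate 2, against 85.4 to 98.5 CPM. Man2b1 was at 1237.7 CPM in ROBO4_KO replicate 3, against 817 to 915 CPM. Tpp1 was at 565.9 CPM in WT replicate 5, against 633.9 to 650.7 CPM. Tfe3 was at 224.6 CPM in ROBO4_KO replicate 3, against 186.2 to 197 CPM. Atp6v0b was at 525.7 CPM in VLDLR_KO replicate 2, against 240 to 320.3 CPM. Atp6ap2 was at 242.8 CPM in VLDLR_KO replicate 2, against 308.1 to 318.6 CPM. Of the 7, the libraries of Ids, Atp6v0b and Atp6ap2 were the one whose summed FPKM stood apart.

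The VLDLR_KO difference from WT was itself different between the code forms, by edgeR's test of the form Bn minus the form nB log2 fold change, for 14 genes. The value was 1.48 for Arsb, 0.70 for Atp6v1c1 and 0.62 for Atp6v1h. It was -1.16 for Tfeb, -0.83 for Psap, -0.83 for Gaa, -0.77 for Glb1, -0.75 for Hexa, -0.69 for Naglu, -0.63 for Arsa, -0.63 for Grn, -0.57 for Sgsh, -0.44 for Ppt1 and -0.43 for Tfe3. Against ROBO4_KO, where 8.45% of all tested genes were called, 8 genes differed between the forms: 1.38 for Arsb, 0.70 for Atp6v1c1, 0.61 for Atp6v1h, -0.62 for Glb1, -0.60 for Gaa, -0.59 for Hexa, -0.56 for Arsa and -0.52 for Grn. The count of 8 was 23 without VLDLR_KO replicate 1, 5 without WT replicate 4, 4 without WT replicate 1 or 2, and 1 to 3 without VLDLR_KO replicate 2, 3 or 5 or any ROBO4_KO library. Both tests share the VLDLR_KO libraries.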

How the results depend on the processing

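Of the 25 genes called in VLDLR_KO against WT of form nB, 12 were called under every alternative: Glb1, Gaa, Hexa, Hgsnat, Fuca1, Arsa, Arsb, Galns, Asah1, Ppt1, Atp6v1c1 and Atp6v1h. In form Bn, Glb1 and Asah1 of the 5 were. Against ROBO4_KO, 6 of 21 and 3 of 4 were. Log2 fold changes of VLDLR_KO against WT in form nB turned sign for Npc1, from -0.6175 without VLDLR_KO replicate 1 to 0.0399 without VLDLR_KO replicate 2, and for Cd68 with the length offset (-0.0210). The causes of the changes below were not tested.

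With each library left out in turn, the number of called genes was 14 to 31 for VLDLR_KO against WT in form nB, 2 to 9 in form Bn, 12 to 27 over both forms and 5 to 25 for the difference between forms. Against ROBO4_KO the ranges were 10 to 27, 3 to 6, 12 to 27 and 1 to 23. For ROBO4_KO against WT they were 0 to 1 in form nB, 0 to 0 in form Bn, 0 to 1 over both forms and 0 to 0 for the difference, and for the form contrast 20 to 30. Some of these leave a genotype and form with 1 library, which is then assumed to vary like the others. The shares of all tested genes called in these fits are not given here, so the ranges have no background to compare with.

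Without the filter on low counts, with the length offset and with DESeq2, ROBO4_KO against WT in form nB had 1 call each, and in form Bn DESeq2 gave 1. A separate fit per form gave 11 for VLDLR_KO against ROBO4_KO in form nB. The length offset gave 7 there in form Bn and 13 for the difference between forms. Ignoring the form gave 7, 0 and 6 calls for VLDLR_KO against WT, ROBO4_KO against WT and VLDLR_KO against ROBO4_KO, and an additive form term gave 11 for the first and 11 for the last. Deviations of same-digit libraries from their group means correlated at -0.553 to 0.423. Since these means come from 2 or 3 libraries, the values cannot show whether the code digit pairs libraries. The replicate block on that digit gave 8 calls for VLDLR_KO against ROBO4_KO in form nB, 11 over both forms and 1 for the difference, 7 for the difference against WT and 7 for the form contrast. With the block, the form contrast compares the forms at digit 1 only, so its count is not of the same quantity as in the main fit. The block also ended the form nB calls against WT of Lipa (adjusted p = 0.0515), Psap (0.075), Tfe3 (0.0777), Atp6v0b (0.0624) and Atp6v1a (0.073). Groups of 2 or 3 libraries limit every comparison, and depth left all 47 genes above the filter.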
